A study of Mus musculus with 35 samples.

Results

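Extracellular ATP, NAD and adenosine are read and cleared at the cell surface by a small group of receptors and enzymes, and 7 of their mouse genes were followed here across 8 groups of samples. They were the ATP-gated channels P2rx7 and P2rx4, the adenosine receptor Adora2a, the lipid receptor P2ry10 of the P2Y-related family, and the ectoenzymes Entpd1, Nt5e and Art2b. The genes were picked by name, partly because P2rx7 and Adora2a were already known to be higher in intestine Trm than in blood Tem of these same data. Among the 20886 genes named on the array, these 7 were read by 9 probes, of which 3 belonged to P2rx7.

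All samples came from healthy wild type C57BL/6 female mice, 8 to 16 weeks old, and no agent was given. CD8+ resident memory T cells (Trm), positive for CD8b and then for CD103 in magnetic selection, were taken from liver (n = 5 arrays), lungs (n = 6) and small intestine (n = 6). Effector memory cells (Tem, n = 6) were CD8b+ blood cells left after CD62L+ cells had been depleted. Unsorted tissue gave 3 arrays each of whole intestine, whole liver, whole lung and blood mononuclear cells (whole PBMC). The labels do not tie arrays to animals, so every p-value measures the spread between these arrays, which may be partly technical. The label of the sorted cells was borne out for T cells in general, since 8 of the 8 T cell markers with a matched probe were well above background on every sorted array; Itgae, which encodes CD103, was not analysed here.

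ATP leaves stressed, dying or activated cells and opens P2X channels. P2X7 needs far more ATP than P2X4 does, and its prolonged opening sheds surface proteins, can kill T cells and, in myeloid cells, drives interleukin-1 release through caspase-1. In mouse T cells, the ART2 enzymes sensitise P2X7 by attaching ADP-ribose from NAD to it. CD39 (Entpd1) and CD73 (Nt5e) take ATP down to adenosine, which acts through Adora2a and Gs proteins to raise cyclic AMP and dampen T cell activation. P2RY10 is named for its likeness to the P2Y receptors, but it responds to lysophosphatidylserine. Mouse P2rx7 is transcribed from more than 1 start and spliced to several forms.

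The starts of 3 of these genes are printed because P2rx7 had annotated starts at 2 places and probes that disagreed, because P2rx4 is its neighbour on the same strand, and because P2ry10 was the member detected on every array. Each run covers 250 bases before to 50 bases after a start, 5′ to 3′ on the + strand, from RefSeq on GRCm38.p6; Entpd1, Nt5e and Art2b were also matched there. P2rx7 lies at chr5:122643927-122692336, and P2rx4 begins 15182 bases beyond its end. Capitals mark matches to the AP-1 motif TGANTCA, the cyclic AMP half-site TGACG or the RUNX motif TGTGGT, on either strand. The windows are chr5:122643677-122643976 and chr5:122650133-122650432 for P2rx7, chr5:122707294-122707593 for P2rx4 and chrX:107088242-107088541 for the first P2ry10 start.
P2rx7 start 1: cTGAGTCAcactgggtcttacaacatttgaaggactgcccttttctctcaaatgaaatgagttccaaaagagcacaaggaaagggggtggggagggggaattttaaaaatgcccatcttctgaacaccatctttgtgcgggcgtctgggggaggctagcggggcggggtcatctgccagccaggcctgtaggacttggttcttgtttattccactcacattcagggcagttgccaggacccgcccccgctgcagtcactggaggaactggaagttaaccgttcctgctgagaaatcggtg
P2rx7 start 2: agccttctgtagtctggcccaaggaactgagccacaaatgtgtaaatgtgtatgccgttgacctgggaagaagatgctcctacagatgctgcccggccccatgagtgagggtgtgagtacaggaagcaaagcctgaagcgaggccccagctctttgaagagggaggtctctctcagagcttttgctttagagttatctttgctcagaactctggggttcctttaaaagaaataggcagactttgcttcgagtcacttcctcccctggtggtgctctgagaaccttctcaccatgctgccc
P2rx4: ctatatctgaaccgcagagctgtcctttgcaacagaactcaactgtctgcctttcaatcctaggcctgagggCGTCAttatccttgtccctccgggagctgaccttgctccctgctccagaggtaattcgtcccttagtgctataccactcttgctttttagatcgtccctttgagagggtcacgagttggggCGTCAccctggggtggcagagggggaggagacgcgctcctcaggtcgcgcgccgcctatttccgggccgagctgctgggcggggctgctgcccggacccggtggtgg
P2ry10 start 1: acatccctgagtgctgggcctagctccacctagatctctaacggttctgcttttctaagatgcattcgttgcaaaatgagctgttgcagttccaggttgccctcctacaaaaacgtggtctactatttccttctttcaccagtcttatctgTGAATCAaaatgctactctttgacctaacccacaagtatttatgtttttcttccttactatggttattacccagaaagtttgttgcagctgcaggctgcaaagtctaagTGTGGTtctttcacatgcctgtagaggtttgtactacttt

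Start 1 of P2rx7 held 1 AP-1 match, and start 2 held no match to any motif searched. The P2rx4 window held 2 half-sites, and the P2ry10 window held 1 AP-1 and 1 RUNX match. Of 32851 promoter windows of this length, 7.81% held the AP-1 motif, 20.8% the half-site and 16.8% the RUNX motif, and 32.4% held the xenobiotic response core GCGTG, which none of the printed windows held. The searched motifs do not overlap each other in these windows, and a match is a description of letters only.

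Levels below are log2 intensities minus the 75th percentile of the same array, taken over probes detected on every array, so a level of 0 equals that percentile. Comparisons among sorted cells use the scale of the 23 sorted arrays, and comparisons with whole tissue use the scale of all 35. A gene entered the tests if 1 of its probes rose well above background on 3 or more arrays of any group, and was called at an adjusted p under 0.05 with limma over all genes tested (8621 sorted, 10635 overall). The members that passed this filter were 4 of 7: P2rx7, P2rx4, Adora2a and P2ry10. Detected probes made up 12.2% to 35.5% of each sorted array and 7.80% to 64.6% of each whole-tissue array. Sorted cells were hybridised on 6 slides, which each carry the same replicate number across groups, and whole tissues on 3 others with another scan day, so that slide and scan day cannot be told apart from the contrast of sorted with whole samples. In such bulk RNA, fewer cells of a type and less RNA per cell cannot be told apart. Probes that were never above background still differed between groups, by a median of 1.33 in liver Trm minus blood Tem, 0.70 in intestine Trm minus blood Tem and 0.24 in lung Trm minus blood Tem.

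Markers of the organ of origin were found in the sorted cells. Hepatocyte markers were above background for 5 to 6 of 6 genes in liver Trm, against 0 of 6 in blood Tem. Their summed log2 level ran from 0.26 to 3.28 in liver Trm and from -6.77 to -4.77 in blood Tem. Gut epithelial markers were detected for 2 to 3 of 5 and fibroblast markers for 2 to 6 of 6 genes in intestine Trm, against 0 to 1 and 0 in blood Tem. Lung epithelial markers were detected for 2 to 5 of 5 genes in lung Trm, against 0 to 2 in blood Tem. Macrophage and dendritic markers were detected for 1 to 6 of 11 genes in liver Trm, 3 to 7 in lung Trm and 3 to 4 in intestine Trm, against 2 to 5 in blood Tem. The part of these cells in the results below was not tested, except where a value is given.

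P2rx7, the low-affinity ATP channel, was high in intestine Trm and near background almost everywhere else. By probe A_55_P2183010, its level in intestine Trm was lowest at -5.23, had a median of -3.21 and was highest at -2.72, against -8.72, -7.86 and -6.80 in blood Tem. Every intestine Trm array was above every Tem array. The fitted difference of 4.24 ± 0.66 (SE) belongs to the choice of the gene and is given as a description, as is 3.74 ± 0.66 for intestine Trm minus lung Trm. Against blood Tem, the arrays of 2 of the 4 members that passed the filter did not overlap in intestine Trm, where 7.96% of all genes tested did not overlap; nothing is read from this count, since the choice of genes used the contrast.

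**Figure D1:**
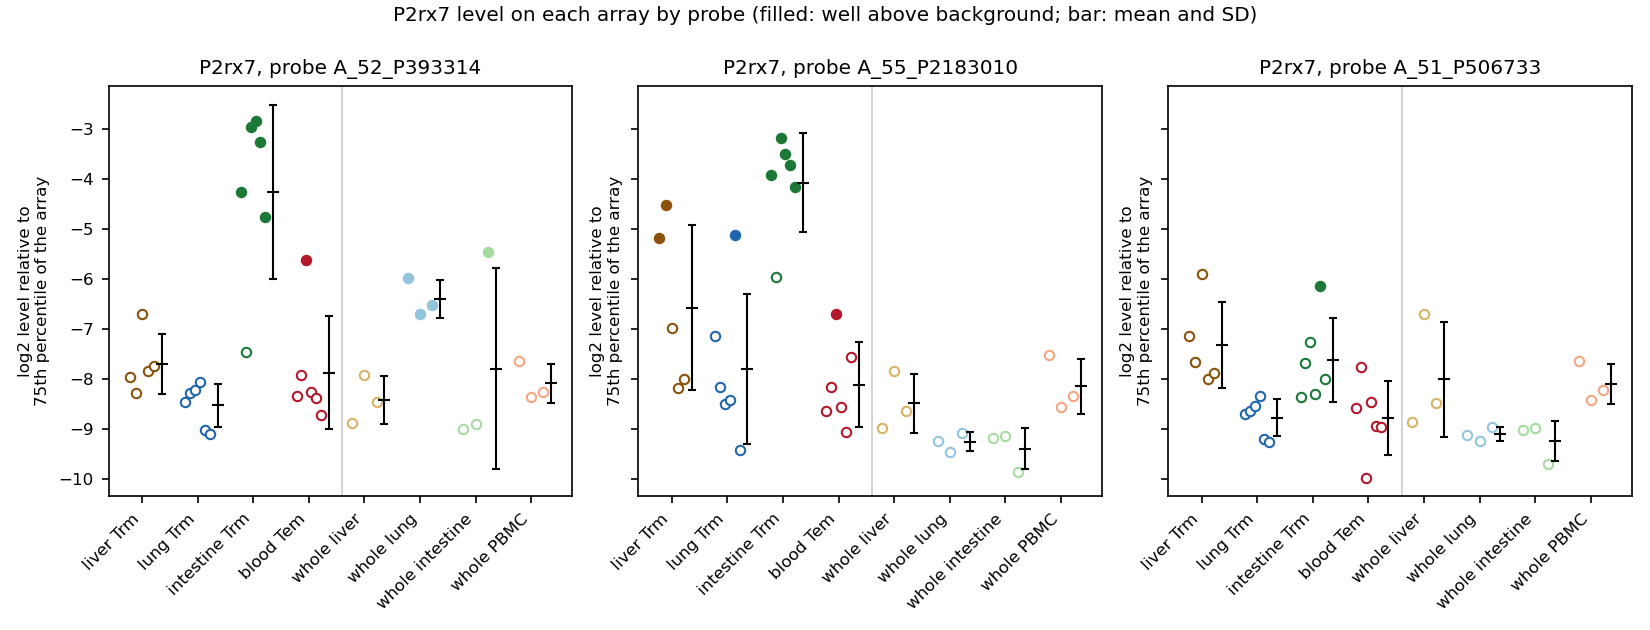
P2rx7 by each of its 3 probes: log2 level relative to the 75th percentile of the array (vertical axis, scale of all 35 arrays) in the 8 groups (horizontal axis). Points are arrays, filled where well above background, and bars are mean and SD. Probes A_52_P393314 and A_55_P2183010 are high on 5 of 6 intestine Trm arrays, the first is also above background on 3 of 3 whole lung arrays, and A_51_P506733 is above background on 1 array.

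The probes of P2rx7 did not tell the same story outside the intestine. Probe A_52_P393314 was well above background on 5 of 6 intestine Trm arrays, on 0 of 5 liver Trm arrays, on 0 of 6 lung Trm arrays and on 1 of 6 Tem arrays. Probe A_55_P2183010 was above background on 5 of 6, 2 of 5, 1 of 6 and 1 of 6 arrays of the same groups. Probe A_51_P506733 was above background on a single array, intestine Trm replicate 5, at -5.63. Intestine Trm replicate 2 was the low array of its group by both other probes, at -5.23 by A_55_P2183010 and -6.72 by A_52_P393314. On that array 6 of 6 fibroblast markers were detected with a summed level of 1.82, above the range of -3.82 to 0.09 on the other intestine Trm arrays; its 8 T cell markers were all detected, with a summed level of 1.64 against 1.99 to 3.03 on the others.

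In liver Trm, P2rx7 by A_55_P2183010 stood at -4.47, -4.18, -5.72, -7.31 and -7.20, against a lowest, median and highest of -8.72, -7.86 and -6.80 in blood Tem. Replicates 1 and 2 were clearly high, replicate 3 lay above Tem but was not above background, and the last 2 lay within the Tem range. Hepatocyte markers were lower on replicates 1 and 2, with summed log2 levels of 0.41 and 0.26, than on replicates 3, 5 and 6, with 3.28, 2.95 and 1.83; T cell markers summed to 2.49 and 2.89 against 1.61, 1.46 and 2.28, and the part of either in the P2rx7 values was not tested. The fitted difference was 1.94 ± 0.69 (SE; limma, adjusted p = 0.0310), positive on 4 of 5 slides. It was lost when either liver Trm replicate 1 or replicate 2 was left out (1.61, adjusted p = 0.0773, and 1.54, adjusted p = 0.0806), when any of liver Trm replicate 3 or Tem replicates 1, 4 or 5 was left out (adjusted p = 0.0513 to 0.0583), with quantile normalization (1.06, adjusted p = 0.303) and by the other probe (0.57, adjusted p = 0.442). In the same contrast, probes that never rose above background were higher by a median of 1.33.

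In lung Trm, P2rx7 by A_55_P2183010 had a lowest, median and highest level of -8.82, -7.77 and -4.29, against -8.72, -7.86 and -6.80 in blood Tem. A single lung array, replicate 5, was above background. Lung Trm minus blood Tem was 0.49 (95% interval -0.88 to 1.86; limma, adjusted p = 0.762), and lung Trm minus liver Trm was -1.45 (-2.88 to -0.01; adjusted p = 0.124). Without lung Trm replicate 5, the difference from liver Trm was -2.03 (adjusted p = 0.0191) and that from Tem was -0.093 (adjusted p = 0.963).

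Set against whole tissue by A_52_P393314, the probe with the higher mean over all 35 arrays, P2rx7 averaged -4.26 ± 1.74 (SD, n = 6) in intestine Trm and -7.80 ± 2.02 (n = 3) in whole intestine. The whole intestine arrays had -9.01, -8.92 and -5.47, and only replicate 3 was above background. The described difference of 3.54 was 5.09 without that array and 5.32 by the other probe. In the lung, it averaged -8.53 ± 0.44 (n = 6) in lung Trm and -6.41 ± 0.38 (n = 3) in whole lung, with no overlap of arrays. No lung Trm array was above background by this probe, and all 3 whole lung arrays were, so the channel was at least 1.25-fold lower in lung Trm (fitted difference -2.13 ± 0.74, limma, adjusted p = 0.0195). The direction depended on the probe and on the background correction: A_55_P2183010, above background on 0 of 3 whole lung arrays, gave 1.47 (adjusted p = 0.110), and normexp gave 0.92 (adjusted p = 0.0399). The call was also lost without lung Trm replicate 6 (-1.84, adjusted p = 0.0587) or whole lung replicate 1 (-1.92, adjusted p = 0.0853). Liver Trm averaged -7.71 ± 0.60 (n = 5), whole liver -8.43 ± 0.48 (n = 3), blood Tem -7.88 ± 1.14 (n = 6) and whole PBMC -8.09 ± 0.39 (n = 3), with 1 of these 17 arrays above background. Below intestine Trm and whole lung, the groups therefore have no order by this probe.

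P2rx4, the high-affinity and widely expressed channel, was detected on 33 of 35 arrays and was lower in liver and lung Trm than in whole liver and whole lung. Among sorted cells its level in intestine Trm was lowest at -3.15, had a median of -2.73 and was highest at -2.02. In lung Trm the same values were -4.35, -4.02 and -3.17, and the 5 liver Trm arrays had -3.20, -2.98, -3.56, -3.60 and -5.04. In blood Tem they were -8.55, -4.52 and -3.83. All intestine Trm arrays lay above all lung Trm and all Tem arrays, and the value of -8.55, in Tem replicate 5, lay far below the rest of its group and was not above background.

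Liver Trm minus blood Tem was 1.47 ± 0.59 for P2rx4 (SE; limma, adjusted p = 0.0496), positive on 4 of 5 slides. This call stood at the edge of the threshold. Without Tem replicate 5 the difference was 0.79 (adjusted p = 0.0837), and leaving out liver Trm replicate 1, 2, 3 or 5 or Tem replicate 2 gave adjusted p = 0.0716 to 0.0937. With array weights it was 0.81 (adjusted p = 0.248), and with scaling over all probes 1.00 (adjusted p = 0.152). Lung Trm minus blood Tem was 1.29 (95% interval 0.13 to 2.45; adjusted p = 0.271). Intestine Trm minus blood Tem, described without a test, was 2.51 ± 0.56, and 1.83 without Tem replicate 5.

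Between Trm populations, no difference of P2rx4 passed the test. Intestine Trm minus lung Trm was 1.22 (95% interval 0.06 to 2.38; limma, adjusted p = 0.169), and positive on 6 of 6 slides with no overlap of arrays; in a fit of these groups alone it passed (1.14, adjusted p = 0.0195). Intestine Trm minus liver Trm was 1.03 (-0.18 to 2.25; adjusted p = 0.250), positive on 5 of 5 slides. Lung Trm minus liver Trm was -0.19 (-1.40 to 1.03; adjusted p = 0.833).

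On the scale of all arrays, P2rx4 averaged -4.48 ± 0.96 (SD, n = 5) in liver Trm and -2.17 ± 0.14 (n = 3) in whole liver, a difference of -2.30 ± 0.73 (SE; limma, adjusted p = 0.0134). It averaged -4.44 ± 0.54 (n = 6) in lung Trm and -2.14 ± 0.05 (n = 3) in whole lung, a difference of -2.30 ± 0.71 (adjusted p = 0.00812). In neither pair did the arrays overlap. With quantile normalization the liver difference was -1.81 (adjusted p = 0.0700). Intestine Trm averaged -3.24 ± 0.41 (n = 6) and whole intestine -1.96 ± 0.57 (n = 3), also without overlap; that difference of -1.29 (95% interval -2.72 to 0.15) did not pass the test (adjusted p = 0.158). Blood Tem averaged -5.55 ± 1.70 (n = 6) and whole PBMC -5.22 ± 2.10 (n = 3), a difference of -0.33 ± 0.71 (SE; adjusted p = 0.686) that became -2.27 (adjusted p = 0.0154) without whole PBMC replicate 1, where P2rx4 was not above background. Macrophages also carry this channel. Their markers were detected for 5 to 7 of 11 genes in whole liver, 7 in whole lung and 4 to 6 in whole intestine. In liver, lung and intestine Trm they were detected for 1 to 6, 3 to 7 and 3 to 4 genes. Their summed log2 level was -2.43 to -0.90 in whole liver, -0.61 to -0.40 in whole lung and -2.31 to -0.76 in whole intestine. In the Trm of these organs it was -3.87 to -2.01, -2.41 to 1.26 and -3.54 to -0.20. The part of macrophages in the P2rx4 values was not tested. The P2rx4 arrays of the 3 organs overlapped. Those of whole liver, the lowest of the 3 by its mean, did not overlap intestine Trm, the next group down.

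**Figure D2:**
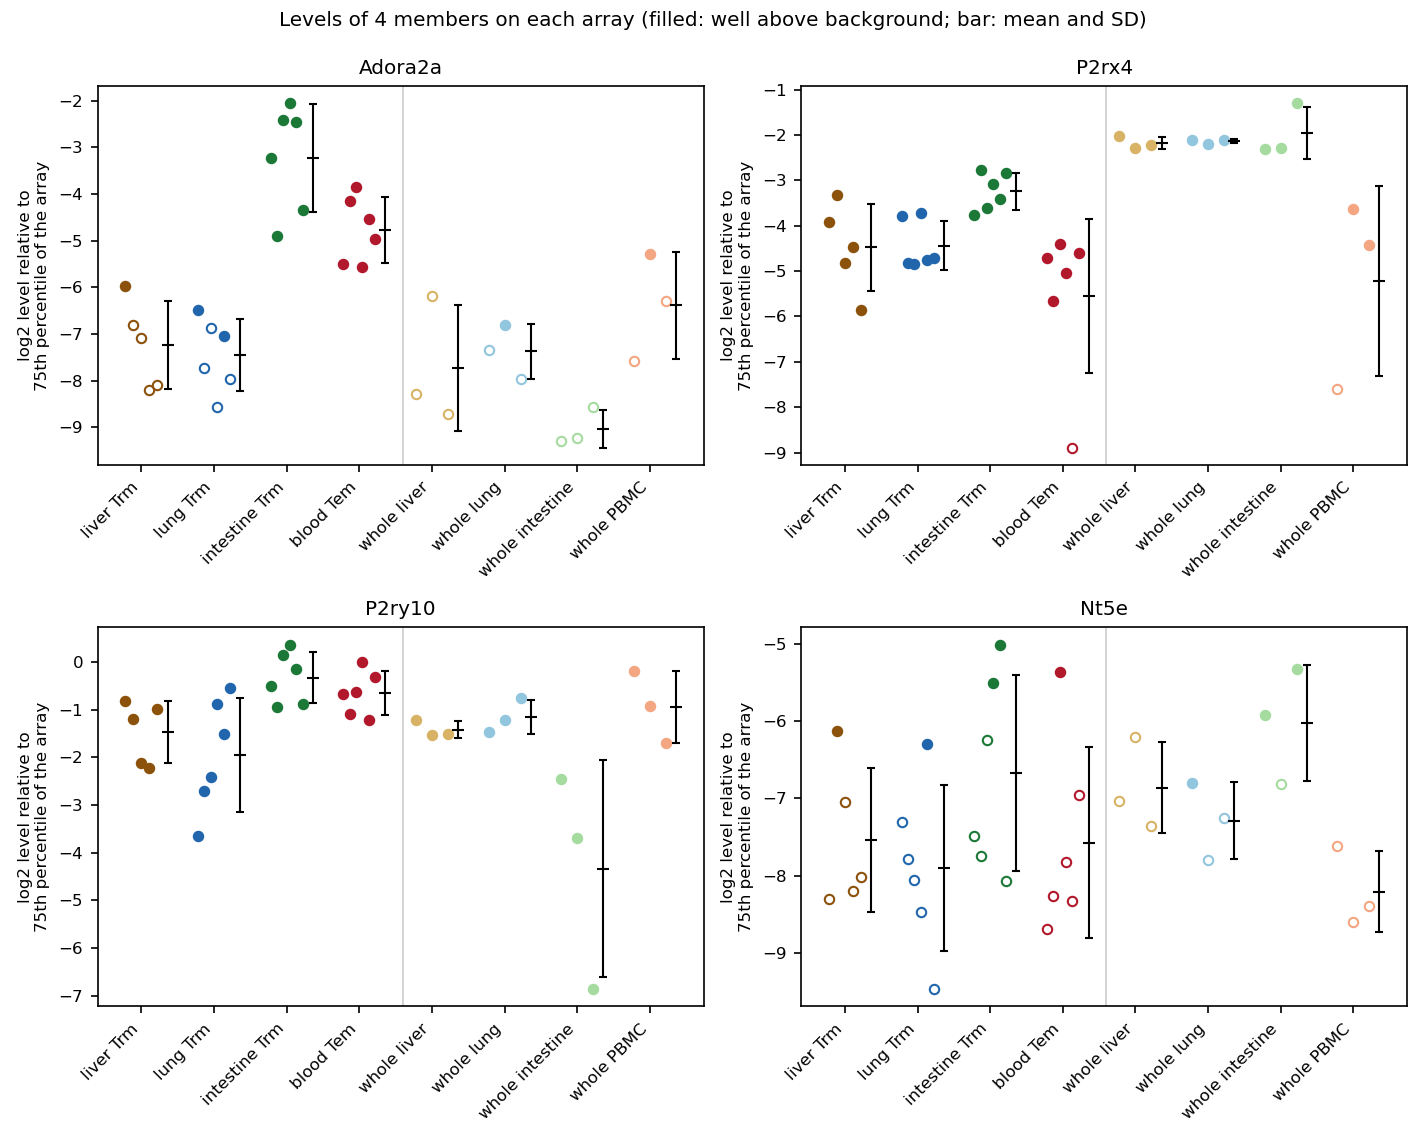
Adora2a, P2rx4, P2ry10 and Nt5e: log2 level relative to the 75th percentile of the array (vertical axes, scale of all 35 arrays) in the 8 groups (horizontal axes). Points are arrays, filled where well above background, and bars are mean and SD. Adora2a is above background on every intestine Trm and blood Tem array and on few others, P2rx4 is highest in the whole organs, P2ry10 is above background everywhere and lowest in whole intestine, and Nt5e is above background on 8 of 35 arrays.

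Adora2a (chr10:75316877-75334792), the Gs-coupled adenosine receptor, was detected throughout intestine Trm and blood Tem but on few arrays of liver and lung Trm. Its probe was well above background on 6 of 6 intestine Trm and 6 of 6 blood Tem arrays, and on 1 of 5 liver Trm and 2 of 6 lung Trm arrays. The 5 liver Trm arrays had -5.26, -6.48, -5.83, -7.34 and -7.28. The lowest, median and highest level was -8.02, -6.80 and -6.01 in lung Trm, -4.16, -2.23 and -1.54 in intestine Trm and -5.04, -4.20 and -3.70 in blood Tem. Every liver and lung array lay below every Tem array, while the intestine arrays overlapped Tem and lay above all liver and lung arrays.

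Liver Trm minus blood Tem was -2.07 ± 0.49 for Adora2a (SE; limma, adjusted p = 0.00422), negative on 5 of 5 slides. Lung Trm minus blood Tem was -2.51 ± 0.47 (adjusted p = 0.00271), negative on 6 of 6 slides. Most liver and lung arrays were not above background, so the sizes depend on where background lies. The liver difference missed the threshold with normexp (-0.57, adjusted p = 0.134), and the lung difference passed under every alternative run (adjusted p up to 0.0150). Lung Trm minus liver Trm was -0.43 (95% interval -1.45 to 0.58; adjusted p = 0.518). The differences that the choice of the gene used were 1.73 ± 0.47 for intestine Trm minus blood Tem, on 5 of 6 slides positive, 3.80 ± 0.49 for intestine Trm minus liver Trm and 4.24 ± 0.47 for intestine Trm minus lung Trm.

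Whole tissue showed little Adora2a. On the scale of all arrays it averaged -3.23 ± 1.15 (SD, n = 6) in intestine Trm and -9.03 ± 0.41 (n = 3) in whole intestine, where no array was above background; the level was at least 16.4-fold higher in intestine Trm, given as a description. It averaged -7.24 ± 0.93 (n = 5) in liver Trm and -7.73 ± 1.36 (n = 3) in whole liver, and -7.45 ± 0.77 (n = 6) in lung Trm and -7.37 ± 0.59 (n = 3) in whole lung; these pairs were mostly at background. Blood Tem averaged -4.76 ± 0.71 (n = 6) and whole PBMC -6.38 ± 1.14 (n = 3), a difference of 1.62 ± 0.63 (SE; limma, adjusted p = 0.0285), while the median over all genes in that comparison was 0.84. Without whole PBMC replicate 1 it was 0.27 (adjusted p = 0.761), and it missed the threshold without Tem replicate 2 or 3 or whole PBMC replicate 3 (adjusted p = 0.0511 to 0.0570) and with quantile normalization (1.16, adjusted p = 0.116). Only 2 of 8 T cell markers were detected on the poorest PBMC array.

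P2ry10 (chrX:107088492-107104974), the lysophosphatidylserine receptor, was above background on 35 of 35 arrays. Among sorted cells the lowest, median and highest level was -0.23, 0.28 and 0.88 in intestine Trm, -3.18, -1.30 and 0.06 in lung Trm and -0.86, -0.42 and 0.56 in blood Tem. The 5 liver Trm arrays had -0.10, -0.85, -0.86, -1.34 and -0.18. Lung Trm was the most variable group, with replicates 1, 2 and 3 at -3.18, -2.19 and -1.92 and the other 3 arrays between -0.68 and 0.06. Markers of some other cell types divided these arrays in the same way, and those of others did not. The summed log2 level of lung epithelial markers was 2.57, 2.07 and 1.92 on replicates 1, 2 and 3, with 4 to 5 of 5 detected, and -4.79 to 0.13 on the other 3, with 2 to 4 detected. That of neutrophil and mast cell markers was 0.63, 0.64 and 0.58 on replicates 1, 2 and 3 and -2.19 to -1.17 on the other 3. Macrophage and dendritic markers were not divided so, at 0.29, -0.08 and -2.41 on replicates 1, 2 and 3. On replicates 4, 5 and 6 they were at 1.26, -0.97 and -0.33. T cell markers ran from 2.65 to 2.86 on replicates 1, 2 and 3 and from 2.07 to 2.95 on the others. The part of these cells in the P2ry10 values was not tested.

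Intestine Trm minus lung Trm was 1.65 ± 0.44 for P2ry10 (SE; limma, adjusted p = 0.0202), positive on 5 of 6 slides, with overlapping arrays. Without lung Trm replicate 1, 2 or 3 it was 1.29, 1.48 or 1.53 (adjusted p = 0.0520 to 0.0579), with scaling over all probes 1.40 (adjusted p = 0.0662), and in a fit of these groups alone 1.56 (adjusted p = 0.0536). Intestine Trm minus liver Trm was 0.94 (95% interval -0.02 to 1.90; adjusted p = 0.192) and lung Trm minus liver Trm -0.71 (-1.67 to 0.25; adjusted p = 0.254). Liver Trm minus blood Tem was -0.42 (-1.38 to 0.54; adjusted p = 0.459), lung Trm minus blood Tem was -1.13 (-2.04 to -0.21; adjusted p = 0.207), and intestine Trm minus blood Tem was 0.52 ± 0.44, described without a test. With array weights both lung differences passed, at -1.91 from Tem (adjusted p = 0.00149) and -1.20 from liver Trm (adjusted p = 0.0408).

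Relative to its organ, P2ry10 stood out in the intestine. On the scale of all arrays it averaged -0.33 ± 0.54 (SD, n = 6) in intestine Trm, while the 3 whole intestine arrays had -2.46, -3.68 and -6.86. The groups did not overlap, and the difference was 4.01 ± 0.63 (SE; limma, adjusted p = 4.43e-06); leaving out each array in turn gave 2.74 to 4.95, and it was 2.74 without whole intestine replicate 3. Liver Trm averaged -1.47 ± 0.66 (n = 5) and whole liver -1.42 ± 0.17 (n = 3), a difference of -0.05 (95% interval -1.37 to 1.28; adjusted p = 0.969). Lung Trm averaged -1.95 ± 1.19 (n = 6) and whole lung -1.15 ± 0.36 (n = 3), a difference of -0.80 (-2.08 to 0.48; adjusted p = 0.344). Blood Tem and whole PBMC averaged -0.65 ± 0.46 (n = 6) and -0.93 ± 0.76 (n = 3), a difference of 0.29 ± 0.63 (SE; adjusted p = 0.696), where the median over all genes was 0.84. Both organ intervals include 0, so neither direction was shown for liver or lung, although with array weights lung Trm was lower than whole lung (-1.15, adjusted p = 0.00339). The T cell marker Cd3e averaged -0.26 in intestine Trm and -4.65 in whole intestine. It averaged -0.63 in liver Trm and -7.13 in whole liver, and -0.06 in lung Trm and -7.01 in whole lung.

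The excess of P2ry10 over the organ was larger in the intestine than elsewhere when tested as a difference of differences over all 35 arrays. It was larger by 4.05 ± 0.91 than in the liver (SE; limma, adjusted p = 0.00136) and by 4.81 ± 0.89 than in the lung (adjusted p = 1.15e-04). Of all genes tested, 14.6% and 22.1% passed the same tests. The whole organs differed as well, at -4.34 ± 2.27 (SD) in whole intestine, -1.42 ± 0.17 in whole liver and -1.15 ± 0.36 in whole lung, with 3 arrays each. These tests were not rerun under other settings or with arrays left out. The matching test for P2rx4 gave 1.02 ± 1.01 against the liver (adjusted p = 0.563) and 1.01 ± 1.00 against the lung (adjusted p = 0.525). For lung minus liver, P2rx7 gave -2.85 ± 1.06 (adjusted p = 0.0634).

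The 3 ectoenzymes were close to background. Entpd1 (CD39, at chr19:40612366-40741602) and Art2b (chr7:101575729-101585591) were well above background on 0 of 35 arrays each by their single probes. Their levels on all arrays ran from -9.88 to -6.46 for Entpd1 and from -9.83 to -6.82 for Art2b, and no order or fold is read from them. Nt5e (CD73, at chr9:88327609-88372089) was above background on 8 of 35 arrays: 1 of 5 liver Trm, 1 of 6 lung Trm, 2 of 6 intestine Trm, 1 of 6 blood Tem, 1 of 3 whole lung and 2 of 3 whole intestine arrays. On the scale of all arrays, the detected Nt5e levels in sorted cells were -6.13 in liver Trm replicate 2, -6.29 in lung Trm replicate 5, -5.51 and -5.01 in intestine Trm replicates 4 and 5, and -5.37 in Tem replicate 3. No group reached the 3 detected arrays needed for a test. A probe at background shows only that the transcript was not measurable with it.

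**Figure D3:**
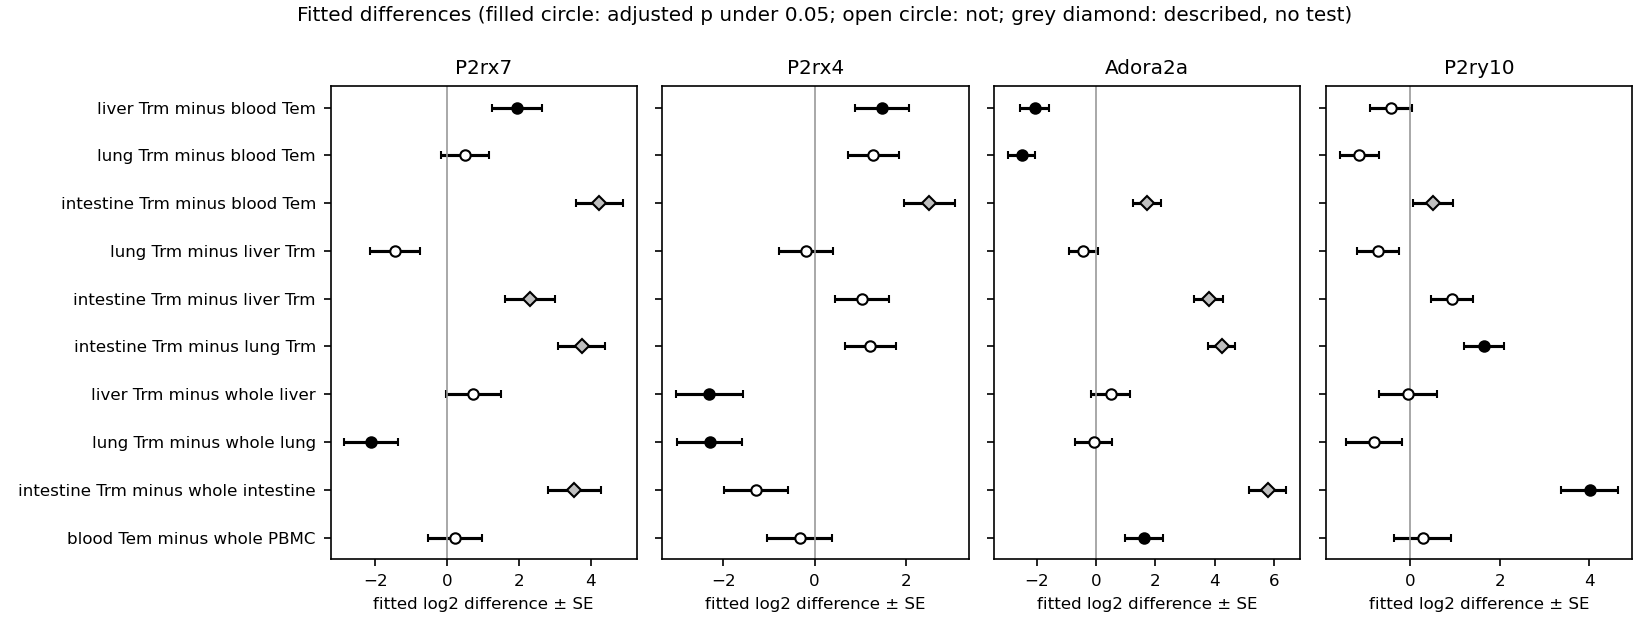
Fitted log2 difference (horizontal axes) with its SE for the 4 members that passed the filter, in 10 comparisons (vertical axis). Filled circles passed an adjusted p of 0.05, open circles did not, and grey diamonds were described without a test. These are all 4 members in intestine Trm minus blood Tem, and P2rx7 and Adora2a in the other comparisons of intestine Trm. Adora2a is at -2.07 and -2.51 in liver and lung Trm minus blood Tem, P2rx4 is below 0 in all 4 comparisons with whole tissue, and P2ry10 reaches 4.01 in intestine Trm minus whole intestine.

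Counted over the comparisons, 3 of 4 members tested were called in liver Trm against blood Tem, 2 higher and 1 lower, where 40.3% of all genes were called in either direction. In lung Trm against blood Tem 1 of 4 was called, the lower Adora2a, against a background of 3.13%. Lung against liver Trm gave 0 of 4 (17.8% of all genes called, 9.3% higher and 8.53% lower) and intestine against liver Trm 0 of 2 (11.7%, 8.87% higher and 2.84% lower). The lung against liver background is unsteady, since the 1537 genes called became 442 to 2836 when 1 array was left out, and 9 of those 11 counts lay beyond 1.5 times. Intestine against lung Trm gave 1 of 2, higher (9.5%, 5.24% higher and 4.26% lower). In intestine Trm against blood Tem, where no member was tested, 17.7% of all genes were called.

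Against whole tissue, liver Trm gave 1 of 4, lower (32.3% of all genes called, 8.53% higher and 23.8% lower), and lung Trm 2 of 4, both lower (41.6%, 15.7% higher and 25.8% lower). Intestine Trm gave 1 of 2, higher (31.8%, 11.7% higher), and blood Tem against whole PBMC 1 of 4, higher (55.2%, 43.9% higher and 11.3% lower). Shares such as 1 of 4 lie near these backgrounds and are no result about the members.

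Groups without overlap were found for 1 of 4 members in liver Trm against Tem (background 14.4%), 1 of 4 in lung Trm against Tem (2.89%), 0 of 4 in lung against liver Trm (5.41%), 1 of 4 in intestine against liver Trm (6.05%) and 2 of 4 in intestine against lung Trm (5.5%). Against whole tissue the counts were 1 of 4 in liver (39.5%), 2 of 4 in lung (47.8%), 3 of 4 in intestine (33.4%) and 0 of 4 in blood (46.3%). Each count for intestine Trm includes Adora2a, which was chosen for its level there, so nothing is read from those counts. The comparisons of each Trm population with blood Tem share their Tem arrays.

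Among the members themselves, P2rx7 varied with P2rx4 (Pearson r = 0.65) and with Adora2a (r = 0.62) over the 23 sorted arrays, and P2rx4 with Adora2a hardly did (r = 0.17). Arrays of a group share their tissue and sort, so these values describe the arrays and carry no test. Of all genes, those most like P2rx7 were Srgn (serglycin, the core of granule proteoglycans; r = 0.86, Spearman 0.81), Dennd4a (r = 0.86) and Neurl3 (r = 0.86). With the group means removed, r was 0.67 for Srgn, 0.71 for Dennd4a and 0.46 for Neurl3. By the probe used, P2rx7 was above background on 9 of the 23 arrays. On liver Trm replicates 5 and 6 it stood at -7.31 and -7.20, and Dennd4a at -7.28 and -7.17. The part of a shared background in these r values was not tested. Those most like P2rx4 were Trp53inp2 (r = 0.86), Bcl6, a transcriptional repressor (r = 0.79), and Atf4, a stress-response transcription factor (r = 0.76); within groups they had 0.72, 0.53 and 0.51. Their Spearman values were 0.83, 0.74 and 0.75. Without the 2 arrays farthest from the P2rx4 median, r was 0.76, 0.67 and 0.73.

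Adora2a was most like Gzmb, the cytotoxic protease granzyme B (r = 0.93, Spearman 0.91), followed by Dapk2 (r = 0.89) and Mapre2 (r = 0.87). Gzmb kept r = 0.75 with the group means removed and 0.92 without the 2 arrays farthest from the Adora2a median. These values include liver and lung Trm arrays on which Adora2a was mostly not above background. On liver Trm replicate 5, Adora2a, Gzmb and Mapre2 stood at -7.34, -7.30 and -7.32, and on replicate 6 at -7.28, -7.21 and -7.21. The part of a shared background in r was not tested. P2ry10 was most like Cd28, the T cell costimulatory receptor (r = 0.85), Tnfaip3, an inhibitor of NF-kappaB signalling (r = 0.85), and Rnf7 (r = 0.84). Their Spearman values were 0.67, 0.75 and 0.81, so Cd28 ranked 62 by that measure. For these, r was 0.82, 0.77 and 0.77 within groups, and 0.66, 0.72 and 0.79 without the 2 arrays farthest from the P2ry10 median.

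**Figure D4:**
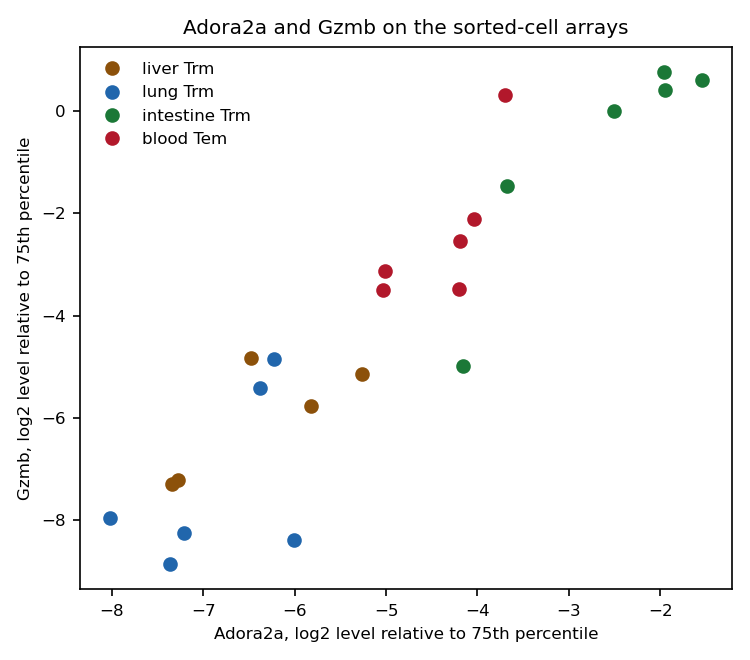
Log2 level of Adora2a (horizontal axis) and Gzmb (vertical axis), each relative to the 75th percentile of the array, on the 23 sorted arrays, coloured by group. Liver and lung Trm lie at the lower left and most intestine Trm and blood Tem arrays at the upper right, while intestine Trm replicate 2, with Gzmb at -4.99, lies level with the highest liver and lung arrays (r = 0.93 over all arrays, 0.75 with group means removed).

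Around the members, 70 further genes of ATP, NAD and adenosine biology were followed, of which 68 had a matched probe and 34 passed the filter among sorted cells. Of the 34, 4 were higher and 8 lower in liver Trm against blood Tem (14.9% and 25.4% of all genes), 2 were higher and 2 lower in lung Trm (2.1% and 1.03%), and 4 were higher and 5 lower in intestine Trm (8.1% and 9.6%). The higher counts include Il18 in lung Trm and Gpr34 and Cd38 in intestine Trm, which each passed the filter only through that group. In liver Trm the 12 genes called against Tem became 6 without liver Trm replicate 5 and 7 without replicate 3. Median differences of the 34 genes were -0.33, -0.15 and 0.01 in liver, lung and intestine Trm, against -0.28, -0.10 and -0.03 over all genes tested.

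Among the other receptors for lysophosphatidylserine, Gpr174 was lower in all 3 Trm populations than in blood Tem, by -2.04 in liver Trm, -1.82 in lung Trm and -2.49 in intestine Trm (limma, adjusted p = 0.00109, 0.00659 and 8.24e-05). P2ry10b, a near relative of P2ry10 (whether its probe also binds P2ry10 RNA was not tested), was lower in liver Trm by -1.73 (adjusted p = 0.0108) and in intestine Trm by -2.24 (adjusted p = 0.00182). Gpr174 was above background on 6 of 6 Tem arrays and on 2 of 5 liver, 5 of 6 lung and 2 of 6 intestine Trm arrays. For P2ry10b it was 4 of 6 Tem, 0 of 5 liver Trm and 1 of 6 intestine Trm arrays. The sizes of these differences therefore depend on where background lies. Gpr34 was detected on 3 of 6 intestine Trm arrays, 1 of 6 Tem arrays and no liver or lung Trm array. It passed the filter only through intestine Trm, so its difference of 2.68 from blood Tem is given as a description. P2rx3, another ATP channel, was higher in liver Trm against blood Tem, by 1.19 (adjusted p = 0.0326). No other adenosine receptor passed the filter among sorted cells.

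Of the enzymes on the cell surface, Cd38, which consumes NAD, was detected on 4 of 6 intestine Trm arrays, against 0 of 5 in liver Trm, 0 of 6 in lung Trm and 1 of 6 in blood Tem. It passed the filter only through intestine Trm, so its differences are given as a description. They were 2.57 ± 0.57 (SE) for intestine Trm minus blood Tem and 3.37 ± 0.57 for intestine Trm minus lung Trm. In the first of these contrasts, probes never above background differed by a median of 0.70. Entpd5, a nucleoside diphosphatase of the endoplasmic reticulum, was lower in intestine Trm than in blood Tem by -2.04 (limma, adjusted p = 0.00146). Dpp4, a dipeptidyl peptidase on T cells, was lower in intestine Trm by -1.20 (adjusted p = 0.0387), and of the 6 tested genes of adenosine handling it was the single one called in that comparison.

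**Figure D5:**
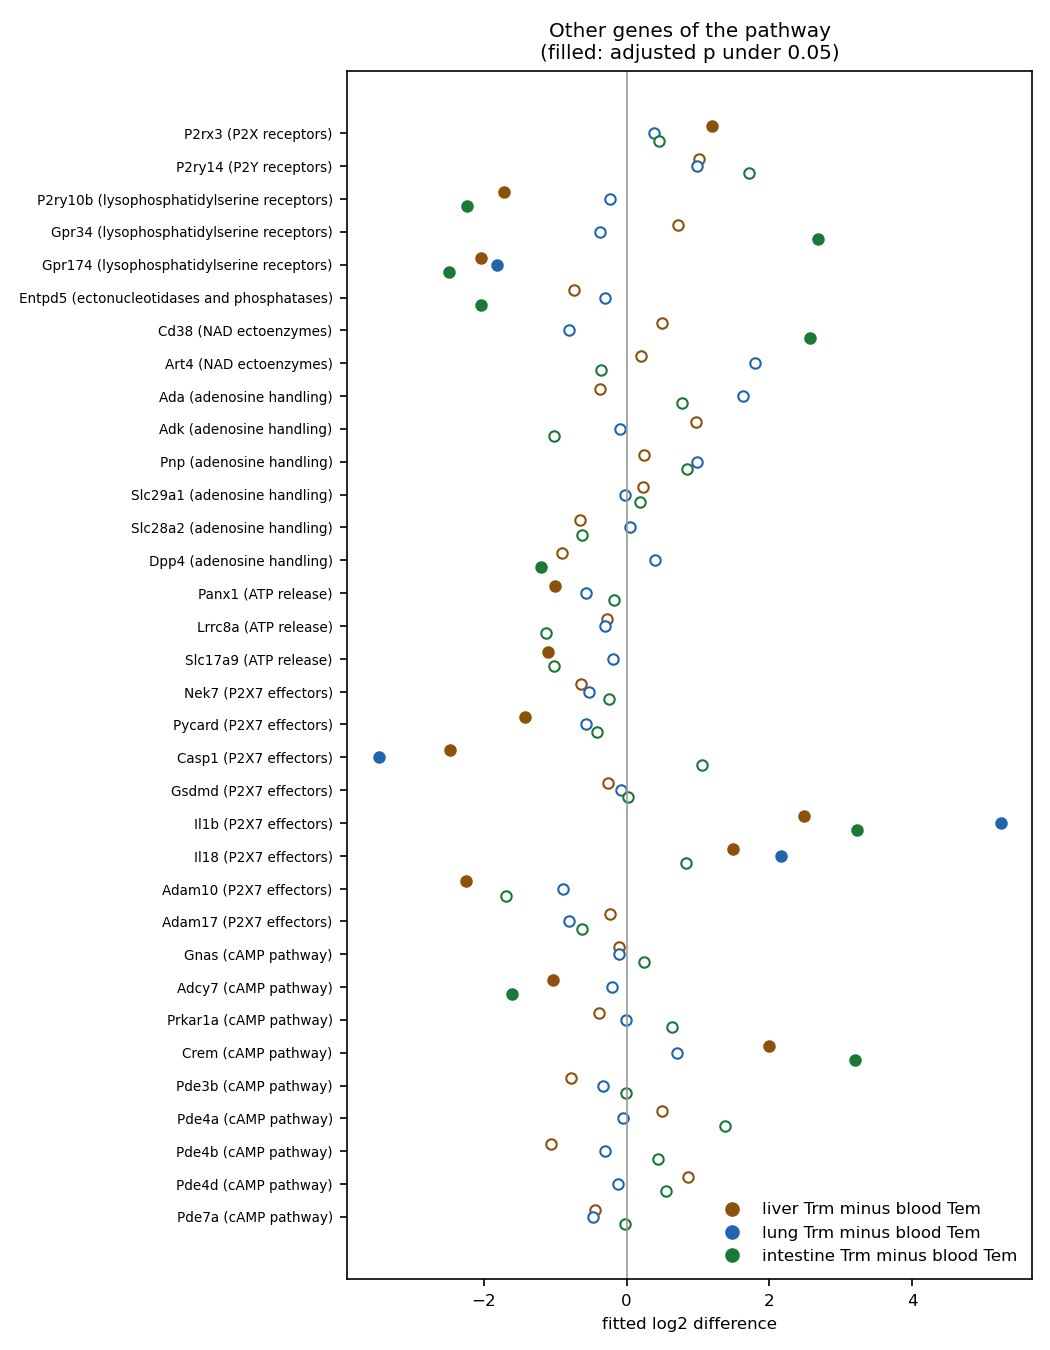
Fitted log2 difference from blood Tem (horizontal axis) of the 34 further pathway genes that passed the filter (vertical axis, with their list) in liver, lung and intestine Trm. Filled points passed an adjusted p of 0.05. Those of Gpr34 and Cd38 in intestine Trm and of Il18 in lung Trm are a description only, since these genes passed the filter through that group alone. Il1b and Gpr174 are filled in all 3 populations, in opposite directions, and Casp1 is filled below 0 in liver and lung Trm.

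Of the 8 tested genes downstream of P2X7, Casp1, the protease that activates interleukin-1β, was lower in liver Trm than in blood Tem by -2.48 (limma, adjusted p = 0.0121) and in lung Trm by -3.48 (adjusted p = 0.00436). It was higher in intestine Trm than in liver Trm by 3.53 (adjusted p = 0.00206) and than in lung Trm by 4.53 (adjusted p = 1.37e-04). Like Adora2a, it was detected on every intestine Trm and Tem array, and on 1 of 5 liver Trm and 1 of 6 lung Trm arrays. Its adaptor Pycard and the sheddase Adam10 were lower in liver Trm than in blood Tem, by -1.42 (adjusted p = 0.0135) and -2.26 (adjusted p = 0.0106).

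The cytokine Il1b was above background on 6 of 6 lung Trm, 2 of 5 liver Trm, 3 of 6 intestine Trm and 0 of 6 blood Tem arrays. In lung Trm it was at least 12.3-fold higher than in Tem (limma, adjusted p = 2.03e-04). It was also called higher than in Tem in liver and intestine Trm (limma, adjusted p = 0.0200 and 0.00569). There the arrays overlapped those of Tem and not all were above background, so no size is given. Il18, a related cytokine, passed the filter only through lung Trm, where 4 of 6 arrays were above background. Its difference of 2.17 for lung Trm minus blood Tem is therefore given as a description. In liver Trm it was called higher, with no array above background in either group and therefore no size. Neutrophil and mast cell markers, whose cells also make Il1b, were detected for 2 to 4 of 6 genes in lung Trm, 1 to 3 in liver Trm and 0 to 2 in intestine Trm, against 0 to 2 in blood Tem. Macrophage and dendritic markers were detected for 3 to 7 of 11 genes in lung Trm, 1 to 6 in liver Trm and 3 to 4 in intestine Trm, against 2 to 5 in blood Tem. The part of any of these cells in the Il1b values was not tested.

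In the cyclic AMP pathway, through which Adora2a acts, Crem, a transcription factor induced by cyclic AMP, was higher in intestine Trm than in blood Tem by 3.21 ± 0.47 (SE; limma, adjusted p = 5.96e-05). It was also higher in liver Trm by 2.00 ± 0.49 (adjusted p = 0.00540), with no overlap in either pair. Adora2a itself differed by -2.07 in liver Trm minus blood Tem, and a link of Crem to Adora2a was not tested. The adenylyl cyclase gene Adcy7 was lower in intestine Trm than in blood Tem by -1.61 (adjusted p = 0.00320). Of the 9 tested genes of this pathway, these 2 were the ones called in intestine Trm against blood Tem. In whole intestine, enzymes of the epithelial surface and of adenosine clearance were far brighter than in the sorted cells. Against whole intestine, intestine Trm had Ada lower by -6.84 (limma, adjusted p = 1.91e-08). Enpp3, Entpd8 and Bst1 were at least 23.7-fold, 14.8-fold and 29.7-fold lower, with 0 of 6 intestine Trm arrays above background for each. These genes passed the filter only through whole tissue, so their folds are given as a description. All 4 ectonucleotidase genes in this fit were called lower in intestine Trm than in whole intestine, as were 20.1% of all genes. Nothing is read from this count, since Entpd2, Entpd8 and Enpp3 passed the filter only through whole tissue.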

How the data were processed

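Gene expression was measured on 35 one-colour mouse arrays of amplified RNA (300 pg input, integrity number above 8, per the labels). The authors deposited scanner files of intensity values, background-subtracted by Feature Extraction 11.0.1.1 per the file headers (10.7 and Partek per the submitters' processing notes), and a table of log2 values. Those log2 values were equal to quantile-normalized intensities within rounding (largest median absolute difference 0.000764). Precision is limited by the number of arrays.

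Log2 processed intensity was scaled to the 75th percentile of each array over the probes that all arrays of the fit detected (4042 probes for 23 sorted arrays, 1341 for 35). Probes were named through RefSeq for GRCm38.p6 (27508 of 39429). Each gene was read by its brightest kept probe. Group means were fitted with limma 3.58.1 (R 4.3.3), with two-sided p-values adjusted by the Benjamini-Hochberg method over all genes, and was tested on simulated data. A probe below background on every array of a group has only a bound there: "at least" folds compare the brighter mean with the lowest signal above background. They are given only where every array of the brighter group was above background.

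The members and gene lists were chosen with earlier results of these data known. Genes outside the members were named by rule, as up to 6 called pathway genes with the largest differences per direction and comparison, and the 3 genes with the highest Pearson r for each member. Alternatives changed the normalization, background correction, filter, probe choice, weights, arrays in the fit and replicate block, and left out each array. Same-numbered sorted arrays correlated from -0.36 to 0.44 after removing group means (7 of 33 pairs over 0.1), so the numbers were not taken as pairs.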

Additional observations from a re-analysis of the deposited data

Results flagged for a closer look

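Dixon's test over 23 probe and group cases picked out 3 arrays, where chance alone picks about 1 in 20 cases. P2rx7 by probe A_52_P393314 was -5.79 in Tem replicate 3, against -8.04 to -7.47 on the other Tem arrays. P2rx7 by A_55_P2183010 was -5.23 in intestine Trm replicate 2, against -3.51 to -2.72 on the other intestine Trm arrays. P2rx4 was -8.55 in Tem replicate 5, against -5.22 to -3.83 on the other Tem arrays.

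The change of P2ry10 from blood Tem differed between intestine Trm and lung Trm by 1.65 (limma, adjusted p = 0.0202). As both share the Tem arrays, this is the intestine Trm minus lung Trm difference of the report and no separate result, and it was 1.29 to 1.53 without lung Trm replicate 1, 2 or 3 (adjusted p = 0.0520 to 0.0579). Its excess over the whole organ differed between intestine and liver by 4.05 (adjusted p = 0.00136) and between intestine and lung by 4.81 (adjusted p = 1.15e-04).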

How the results depend on the processing

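Results were recomputed under 48 settings, of which 35 left out 1 array each. The differences of differences between organs were not among them. Adora2a in lung Trm against blood Tem, P2ry10 in intestine Trm against whole intestine and P2rx4 in lung Trm against whole lung stayed past the threshold in every setting that touched them. With normexp the described differences of intestine Trm were smaller, such as 2.72 for P2rx7 minus Tem and 2.12 for Adora2a minus liver Trm. The causes of the changes below were not tested. Dim probes have only a bound, and 3 arrays per whole tissue limit the rest.

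The number of members called in liver Trm against blood Tem was 1 with scaling over all probes, with the mean of all probes, in a fit of the 2 groups alone, and without liver Trm replicate 3 and Tem replicate 3 together, and 1 to 3 when each array was left out. In lung Trm against Tem it was 2 with array weights. In lung against liver Trm it was 1 with normexp, 1 with no filter and 2 with array weights (0 to 1 leaving out arrays). In intestine against lung Trm it was 0 with scaling over all probes and 2 with normexp or array weights (0 to 1 leaving out arrays). In liver Trm against whole liver it was 0 with quantile normalization or the deposited log2 values, and 2 with normexp or with P2rx7 by its other probe. In lung Trm against whole lung it was 1 with the mean of all probes or the other P2rx7 probe (1 to 2 leaving out arrays). In intestine Trm against whole intestine it was 2 with normexp or in the fit of 2 groups. In Tem against PBMC it was 0 with quantile normalization, scaling over all probes or the deposited values, and 3 with array weights (0 to 1 leaving out arrays). The members without overlap in intestine Trm against Tem were 1 with a stricter filter, in the fit of 2 groups or by the other P2rx7 probe. The other P2rx7 probe and slide as a random block were chosen after seeing the data.

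Of the members' differences that changed sign, 1 was past the threshold: P2rx7 in lung Trm minus whole lung was 0.92 with normexp (adjusted p = 0.0399) and 1.47 by the other probe (adjusted p = 0.110), which also gave -0.48 for P2rx7 in lung Trm minus Tem. Adora2a in lung minus liver Trm was 0.37 with quantile normalization, 0.013 with scaling over all probes and 0.40 with the deposited values, and P2rx4 there was 0.26 with scaling over all probes. Adora2a in lung Trm minus whole lung was 0.068 with scaling over all probes, 0.10 with normexp, 0.065 with array weights, 0.19 with the replicate block and 0.19 with liver Trm 3 and Tem 3 left out (-0.37 to 0.21 leaving out arrays). P2ry10 in liver Trm minus whole liver was 0.44, 0.37, 0.013 and 0.44 with quantile normalization, scaling over all probes, normexp and the deposited values, and 0.27 with liver Trm 3 and Tem 3 left out (-0.21 to 0.23 leaving out arrays). P2ry10 in Tem minus PBMC was -0.056, -0.33, -0.056 and -0.037 with quantile normalization, scaling over all probes, the deposited values and the replicate block (-0.094 to 0.40 leaving out arrays). P2rx7 in Tem minus PBMC was -0.40 with scaling over all probes and -0.026 with array weights (-0.31 to 0.39), P2rx4 in Tem minus PBMC 0.25 in the fit of 2 groups (-2.27 to 0.47), and P2rx7 in lung Trm minus Tem -0.093 to 0.82 leaving out arrays.

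With the replicate block, which stands for the slide in sorted cells, 2 members were called in liver Trm against Tem: P2rx7 became 1.91 (adjusted p = 0.0602), P2rx4 was 1.57 (adjusted p = 0.0487) and Adora2a -2.12 (adjusted p = 0.00763). The block changed no other call of a member. By Spearman instead of Pearson, Srgn, Dennd4a and Neurl3 ranked 6, 14 and 1 for P2rx7, Trp53inp2, Bcl6 and Atf4 1, 29 and 21 for P2rx4, Gzmb, Dapk2 and Mapre2 1, 3 and 2 for Adora2a, and Cd28, Tnfaip3 and Rnf7 62, 11 and 2 for P2ry10. Leaving out 1 array moved the count of all genes called by over 1.5 times in liver Trm against Tem (2242 to 3875), lung Trm against Tem (175 to 289), lung against liver Trm (442 to 2836), intestine against liver Trm (640 to 1360), intestine against lung Trm (511 to 1190) and Tem against PBMC (2952 to 5884).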
